A study of Rattus norvegicus with 2 samples.

Results

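Semaphorins, plexins and neuropilins were described in rat OPCs (oligodendrocyte precursor cells), progenitors of the glia that wrap axons of the brain and spinal cord in myelin. Members were all genes of the expression table whose symbol names a semaphorin of classes 3 to 7, a plexin of types A to D or a neuropilin. This gave 30 genes of 17455, made up of 19 semaphorins, 9 plexins and 2 neuropilins; Sema3g was not analysed here. The wild-type cells had been transfected with a Lonza kit, either with a vector (the control group) or with Slit1, a secreted guidance ligand of the Robo receptors. Each group was 1 library of total RNA. The series concerns OPC differentiation under overexpression of Slit1, and neither the age of the animals nor the interval from transfection to harvest is stated in the labels.

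Semaphorins are ligands that share an extracellular sema domain. Class 3 members are secreted, members of classes 4, 5 and 6 span the membrane, and Sema7a is held at the surface by a lipid anchor. Plexins are their receptors, and their cytoplasmic part acts on small GTPases of the Ras and Rap type; neuropilins are co-receptors through which most secreted semaphorins reach A-type plexins. In the oligodendrocyte lineage the family is known for steering the migration of precursors and for growth-inhibiting signals from oligodendrocytes to axons.

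Estimated counts summed to 18817462 (vector) and 18998770 (Slit1). Slit1 itself was at 1.70 TPM (transcripts per 1000000, a level per transcript length) in the vector library and at 229.7 TPM in its own, and the table does not separate the transfected copy from the endogenous gene. The cell type label was checked against marker genes. All 8 OPC markers were present, with Olig1 at 730.1 and 686 TPM, but the 8 astrocyte markers summed to 9446 TPM in vector and 10450 TPM in Slit1, with Gfap alone at 4694 and 6130 TPM. Genes that mark astrocytes were thus at a higher summed level than the OPC markers (2235 and 2314 TPM). Markers of microglia summed to 1.11 and 1.42 TPM over the 5 listed genes measured (Itgam had 0 counts in vector), and those of endothelial cells to 5.96 and 4.47 TPM over 7 genes, Flt1 being the most abundant. Neuron markers summed to 63.4 and 64.5 TPM, and fibroblast or pericyte markers to 25.2 and 24.07 TPM. Schwann cell markers summed to 542.6 and 484.5 TPM, most of it from Sox2 (394.4 and 340.7 TPM), a factor of neural progenitors as well, and 2 of the 5 that passed the floor were lower, Pmp2 (56.9 and 35.02 TPM) and Egr2 (11.4 and 4.69 TPM); Ngfr was at 0.25 and 0.24 TPM. Genes of newly formed oligodendrocytes differed between the libraries: 6 of 8 were at least 1.5-fold higher in Slit1, and their summed level was 1018 and 2763 TPM. All 6 measured myelin genes that passed the floor were higher as well, Mbp among them (220.5 and 1704 TPM), and the summed level of the 7 in the table was 808 and 3621 TPM.

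Of the 30 members, 5 were at least 1.5-fold higher in the Slit1 library, 1 was lower by that amount and 24 lay between. The higher genes were the receptor gene Plxnb3 and the ligand genes Sema4c, Sema5b, Sema5a and Sema4d. These encode proteins of the cell surface, as do all members outside class 3. The lower gene was Sema3a, which encodes a secreted repellent. The limit was set on the log2(TPM + 1) difference, Slit1 minus vector, and genes entered the comparison if the mean of both libraries reached 1 TPM, a floor that all 30 members passed. Among all 13175 genes tested by this rule 3.74% were higher and 4.84% lower, against 16.7% and 3.33% of the members. Plxnb3 was the single member at least 2-fold higher, and no member was at least 2-fold lower; among all genes tested these shares were 1.24% and 0.645%. The median difference of the members was 0.04 and that of all genes tested was -0.05. With 1 library per group no difference has a replicate check and no p-value can be given. The 95% intervals printed with ratios cover counting error only. In bulk RNA, fewer cells of a type and less RNA per cell cannot be told apart.

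**Figure D1:**
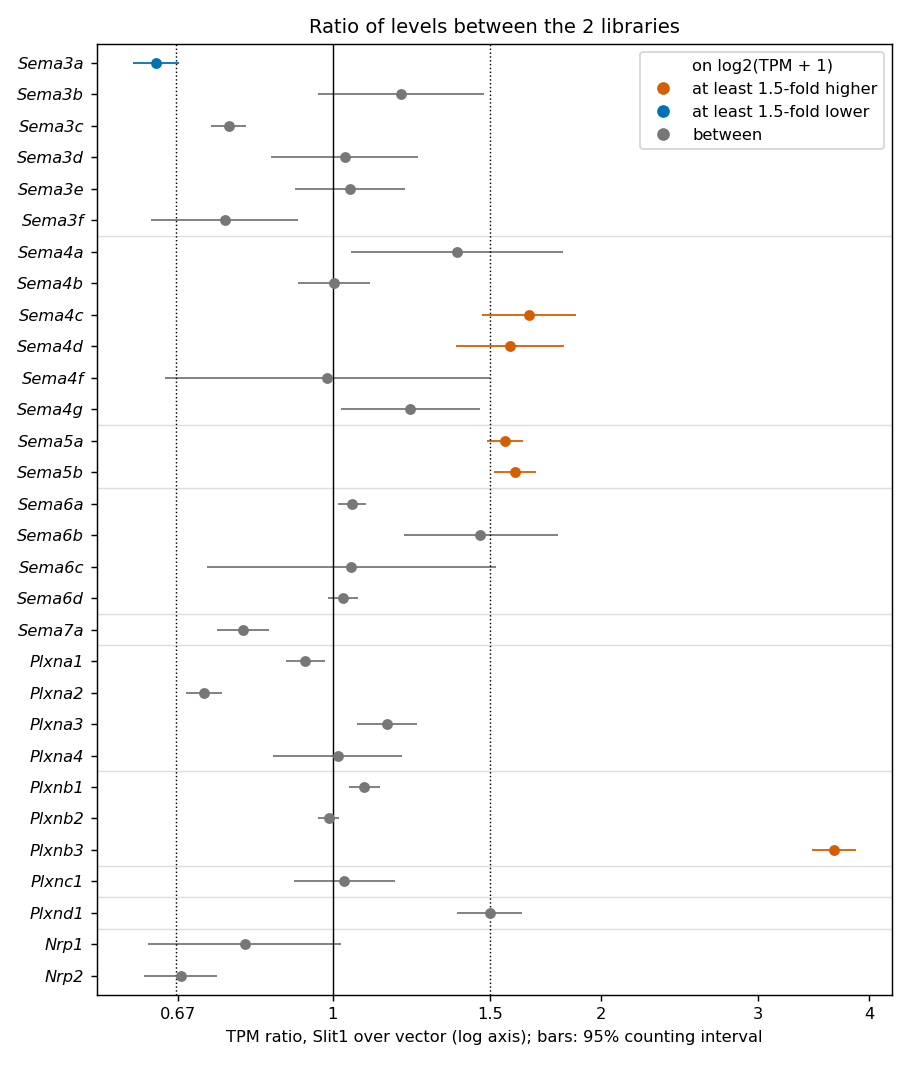
Ratio of TPM levels, Slit1 over vector, for each of the 30 genes, on a log axis. Points are ratios of 1 library to 1 library, bars are 95% counting intervals, dotted lines mark 1.5-fold in either direction and colours give the call on the log2(TPM + 1) scale. Plxnb3 stands at 3.65, and the other 29 genes lie between 0.633 and 1.66.

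Levels spanned a wide range. Plxnb2, a widely expressed receptor, was the most abundant member in both libraries, at 200.9 TPM in vector and 199 TPM in Slit1, which placed it at percentile 93.2 and 93.0 of the genes tested. In vector it was followed by Sema3c (103 TPM), Sema6d (102 TPM), Sema6a (93.8 TPM), Sema7a (88.2 TPM) and Plxnb1 (74.9 TPM). The separate 95% counting intervals of Sema3c and Sema6d overlapped, as did those of Sema6a and Sema7a. Such an overlap does not show that 2 levels are equal. In Slit1 the order after Plxnb2 was Plxnb3 (105.9 TPM), Sema6d (104.9 TPM), Sema6a (98.6 TPM), Sema5b (85.7 TPM) and Plxnb1 (81.2 TPM). Plxnb3 moved from rank 13 of the 30 members to rank 2, where it could not be separated from Sema6d by counting error. At the low end, Sema4f, Sema6c, Plxna4 and Nrp1 stayed below 3 TPM in both libraries. The numbers of members below 10 TPM were 13 in vector and 12 in Slit1.

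**Figure D2:**
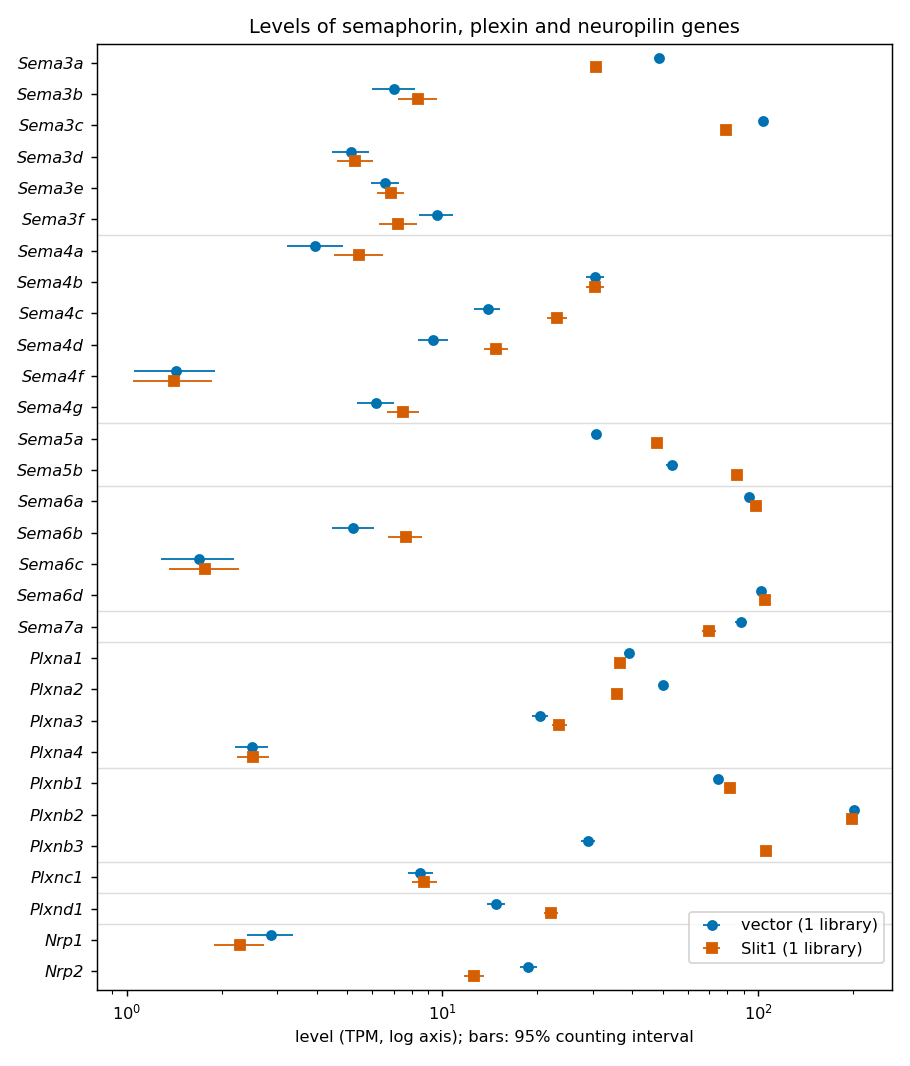
Level of each gene in TPM on a log axis in the vector library (circles) and the Slit1 library (squares), with 95% counting intervals of each level as bars. Genes are grouped by class, and the widest gap between the symbols of a gene is that of Plxnb3 (29.01 and 105.9 TPM).

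Secreted semaphorins had 0 higher members and 1 lower. Sema3a, a repellent for axons and for migrating OPCs, measured 48.5 TPM with vector and 30.7 TPM with Slit1, which is lower by 1.58-fold (interval 1.49 to 1.68). Its estimated counts were 2644 and 1948, a smaller gap, and relative to the library totals the count ratio was 0.730. Sema3a was not past 1.5-fold in CPM (counts scaled to the library total). In FPKM (the authors' fragment value per length and total) it measured 22.3 and 14.5, a ratio of 0.653, and it missed the limit by a small margin with 1 added before the log (difference -0.58). Sema3c, the most abundant ligand of this class, measured 103 and 79.01 TPM, a ratio of 0.764 (interval 0.730 to 0.799). Sema3f, known as an attractant for OPCs, had 9.59 and 7.25 TPM and a ratio of 0.756 (interval 0.626 to 0.913). The other 3 secreted ligands were scarce, and their intervals included 1. Sema3b measured 7.0 and 8.34 TPM. Sema3d measured 5.13 and 5.29 TPM, and Sema3e, which binds Plxnd1 without a neuropilin, measured 6.57 and 6.87 TPM. The 3 members whose intervals lay below 1 thus included both abundant ligands of the class, Sema3a and Sema3c. Beside these values, 2 of the 8 astrocyte markers were at least 1.5-fold lower in Slit1, Slc1a2 (215.4 and 94.06 TPM) and Gja1 (506.2 and 295.7 TPM). Slc1a3 (ratio 0.880, interval 0.870 to 0.891) and S100b (ratio 0.933, interval 0.911 to 0.954) also lay below 1. Gfap (ratio 1.31), Aqp4 (ratio 1.19) and Aldoc (ratio 1.12) lay above 1 beyond counting error, and the interval of Aldh1l1 included 1 (ratio 1.03). The part of astrocytes in the values of the secreted ligands was not tested.

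Class 4 semaphorins, which act mainly through B-type plexins, had 2 higher members of 6. Sema4c, a ligand of plexin-B2, measured 13.9 TPM with vector and 23.05 TPM with Slit1, a ratio of 1.66 (interval 1.47 to 1.87) from 432 and 718 counts. Sema4d, the ligand of plexin-B1 that oligodendrocytes carry, measured 9.34 and 14.8 TPM, a ratio of 1.58 (interval 1.37 to 1.82). Both intervals reached below 1.5. Sema4a, at 3.96 and 5.45 TPM, had a ratio of 1.38 that rested on 96 and 128 counts (interval 1.05 to 1.81). Sema4g, at 6.16 and 7.52 TPM, had a ratio of 1.22 (interval 1.02 to 1.46). Sema4b, the most abundant of the class in both libraries, showed no difference beyond counting error (30.4 and 30.5 TPM, ratio 1.002, interval 0.913 to 1.099). Sema4f was near the floor at 1.43 and 1.41 TPM. The ratio was above 1 for 5 of the 6 members, Sema4b included.

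Both class 5 semaphorins, which carry thrombospondin repeats beside the sema domain, were higher. Sema5b measured 53.5 TPM with vector and 85.7 TPM with Slit1, a ratio of 1.60 (interval 1.52 to 1.69), with 2116 and 3572 counts. Sema5a, a ligand of plexin-B3 that is made in the oligodendrocyte lineage and limits axon growth, measured 30.7 and 47.95 TPM, a ratio of 1.56 (interval 1.49 to 1.64). These are among the better counted members, and the interval of Sema5b lay wholly above 1.5 while that of Sema5a reached just below it. Over all 8 markers of newly formed oligodendrocytes, 6 of which were higher in the same library, the summed level was 1018 and 2763 TPM, a ratio of 2.71. The part of these cells in the values of Sema5a and Sema5b was not tested.

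Class 6 semaphorins, ligands of A-type plexins, had no member past 1.5-fold. Sema6a, known from maturing oligodendrocytes, was abundant at 93.8 and 98.6 TPM, with a ratio of 1.05 (interval 1.01 to 1.09). Sema6d measured 102 and 104.9 TPM, a ratio of 1.03 (interval 0.988 to 1.07). The member that differed most was scarce: Sema6b measured 5.22 and 7.64 TPM (ratio 1.46, interval 1.20 to 1.79, from 170.0 and 259 counts). Sema6c remained at 1.69 and 1.77 TPM. Sema7a, the anchored member that signals through integrin beta-1 and plexin-C1, measured 88.2 and 69.9 TPM, a ratio of 0.792 (interval 0.741 to 0.847).

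Among the receptors, Plxnb3 stood apart. This B-type plexin, known from the oligodendrocyte lineage and as the receptor of Sema5a, measured 29.01 TPM with vector and 105.9 TPM with Slit1, from 1486 and 5646 counts. The ratio was 3.65 (interval 3.45 to 3.87) and the difference on the log2(TPM + 1) scale was 1.83, which ranked 29 among the 13175 genes tested. Its share of the summed level of the 9 plexins was 6.60% in vector and 20.6% in Slit1. The other B-type plexins, receptors of class 4 semaphorins, differed far less: Plxnb1 measured 74.9 and 81.2 TPM (ratio 1.08, interval 1.04 to 1.13), and Plxnb2 had a ratio of 0.989 (interval 0.963 to 1.02). Without Plxnb3 the summed level of the plexins was 410.9 TPM in vector and 408.8 TPM in Slit1. Markers of the lineage lay higher in the same library as Plxnb3, among them Mbp by a ratio of 7.73 and Enpp6 by a ratio of 5.41. Of the 8 OPC markers 2 were also at least 1.5-fold higher, Sox10 (ratio 3.05) and Gpr17 (ratio 2.40), and the other 6 lay between, with ratios from 0.753 for Ptprz1 to 1.21 for Lhfpl3 (listed as LOC103692025) and 1.03 for Pdgfra, the growth factor receptor of precursors. The part of the makeup of the cell population in the value of Plxnb3 was not tested.

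A-type plexins, which transmit class 3 signals with neuropilins and class 6 signals directly, lay on both sides of 1. Plxna2, a receptor of Sema6a, measured 49.8 TPM with vector and 35.7 TPM with Slit1, a ratio of 0.717 (interval 0.685 to 0.750). Plxna1, a receptor of Sema6d, had a ratio of 0.931 (39.1 and 36.4 TPM, interval 0.885 to 0.980). Plxna3, which serves Sema3f together with Nrp2, had a ratio in the other direction, 1.15 (20.4 and 23.5 TPM, interval 1.06 to 1.24). Plxna4 was scarce and did not differ beyond counting error (2.49 and 2.52 TPM). The C-type receptor gene Plxnc1 did not differ beyond counting error either (8.52 and 8.77 TPM, interval 0.904 to 1.17). Plxnd1, the receptor of Sema3e, measured 14.7 and 22.1 TPM, and its ratio of 1.499 (interval 1.38 to 1.63) lay at the limit: it was past 1.5-fold in CPM and with the median gene set to 0, but not on log2(TPM + 1).

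Both neuropilins had a ratio below 1, but the interval of Nrp1 included 1. Neither passed 1.5-fold on the log2(TPM + 1) scale. Nrp2, the co-receptor for Sema3f and Sema3c, measured 18.7 TPM with vector and 12.6 TPM with Slit1, lower by 1.48-fold (interval 1.35 to 1.63). Nrp1, the co-receptor for Sema3a and for vascular endothelial growth factor, was scarce at 2.86 and 2.28 TPM, and its ratio of 0.797 had an interval of 0.621 to 1.02. Over all 30 members the interval lay wholly above 1 for 12 (40%), wholly below 1 for 7 (23.3%) and included 1 for 11. Among the 13158 genes tested that had counts in both libraries, 22.3% lay wholly above 1 and 33.6% wholly below 1.

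Summed over classes, the secreted ligands measured 180.3 TPM with vector and 137 TPM with Slit1, a ratio of 0.763. Most of this sum was that of Sema3c (103 and 79.01 TPM) and Sema3a (48.5 and 30.7 TPM). The log2(TPM + 1) difference was above 0 for 3 of the 6 secreted ligands and below 0 for 3. The membrane-bound ligands of classes 4 to 7 measured 440.3 and 498.9 TPM, a ratio of 1.13. Class 5 had the highest ratio of sums among the ligand classes (84.2 and 133.6 TPM, ratio 1.59), followed by class 4 (65.2 and 82.7 TPM, ratio 1.27). Class 6 was nearly level, at 202.8 and 212.8 TPM. For the receptors, the B-type plexins summed to 304.8 and 385.7 TPM, the A-type plexins to 111.8 and 98.1 TPM and the neuropilins to 21.6 and 14.9 TPM. Without Plxnb3 the B-type plexins summed to 275.8 and 279.8 TPM. The whole family summed to 1082 TPM in vector and 1166 TPM in Slit1, with Plxnb3 in it at 29.01 and 105.9 TPM.

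**Figure D3:**
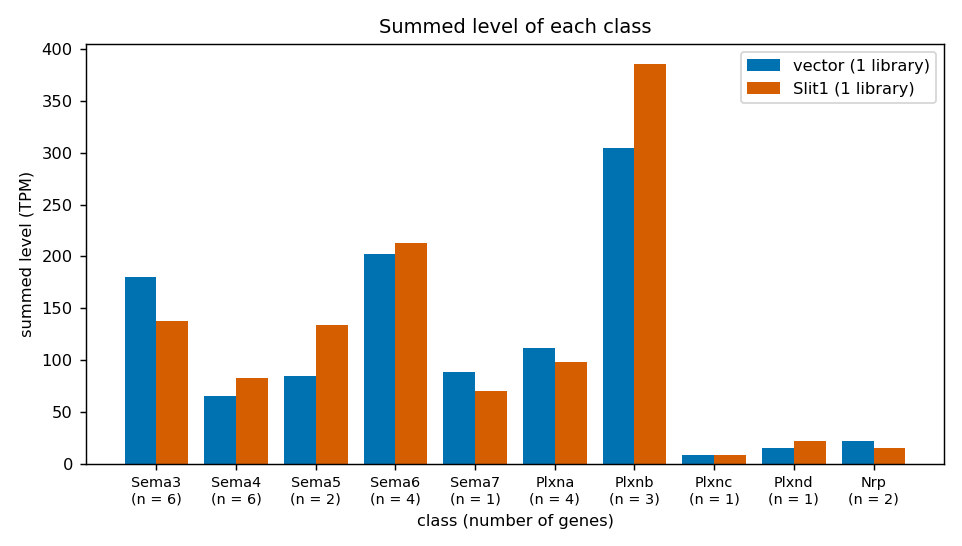
Summed level in TPM of each class in the vector and Slit1 libraries, with the number of genes under each pair of bars. Bars start at 0 and stand for 1 library each. The Sema3 sum is lower in Slit1 (180.3 and 137 TPM), and the Sema5 and Plxnb sums are higher (84.2 and 133.6 TPM, 304.8 and 385.7 TPM). Without Plxnb3 the Plxnb sum is 275.8 and 279.8 TPM. Most of the Sema3 sum is that of Sema3c and Sema3a in both libraries.

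Promoter windows were examined for the members that were higher, since these lay on the same side in 1 library. RefSeq windows on the GRCr8 assembly, from 250 bases before to 50 bases after the gene start, were found for 22 of the 30 members, among them Plxnb3, Sema4c and Sema5b. No window was available for Sema4d and Sema5a, the other higher members. The expression table was made on another assembly, so the windows are those of the genes and not of any measured start. They are printed 5′ to 3′ on the strand of the gene, with matches to 7 motifs in capitals: Plxnb3 at chrX:156646624-156646923 (plus strand), Sema4c at chr9:46297949-46298248 (minus strand) and Sema5b at chr11:78730540-78730839 (minus strand).
Plxnb3: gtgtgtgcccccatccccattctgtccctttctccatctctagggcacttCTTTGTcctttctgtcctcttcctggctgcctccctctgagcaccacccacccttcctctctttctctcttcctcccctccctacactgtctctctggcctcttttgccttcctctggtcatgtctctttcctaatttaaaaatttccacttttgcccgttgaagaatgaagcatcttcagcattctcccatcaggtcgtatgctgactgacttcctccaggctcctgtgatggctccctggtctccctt
Sema4c: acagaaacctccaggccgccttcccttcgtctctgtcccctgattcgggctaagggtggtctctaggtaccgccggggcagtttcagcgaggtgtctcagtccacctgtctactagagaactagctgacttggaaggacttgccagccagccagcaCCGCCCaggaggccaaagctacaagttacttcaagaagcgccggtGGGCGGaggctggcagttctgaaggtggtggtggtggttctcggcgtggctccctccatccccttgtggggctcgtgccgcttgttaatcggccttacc
Sema5b: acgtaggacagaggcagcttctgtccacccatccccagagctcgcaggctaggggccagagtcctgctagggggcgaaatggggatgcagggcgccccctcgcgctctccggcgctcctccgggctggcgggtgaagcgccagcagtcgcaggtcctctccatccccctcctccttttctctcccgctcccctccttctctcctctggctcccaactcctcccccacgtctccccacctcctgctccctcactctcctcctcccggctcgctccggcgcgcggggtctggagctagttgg

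The motifs were searched on both strands and were the MYRF motif CTGGNAC, the SOX motif ACAAAG with its variant form ACAATG, the E-box CAGCTG, the GC box motif GGGCGG, the TATA box motif TATAAA and the AP-1 motif TGANTCA. They do not overlap in the printed windows. The Plxnb3 window held 1 match, a SOX match whose first base lies 200 bases before the gene start (CTTTGT on the printed strand, the reverse complement of ACAAAG). Across all 33469 windows of the reference, 18.8% held ACAAAG. The Sema4c window held 2 GC boxes, a motif found in 33.1% of all windows, and the Sema5b window held no match to any of the 7. Among the 22 members with a window, 12 held a GC box, 5 held ACAAAG, 5 held CTGGNAC (18.2% of all windows), 6 held CAGCTG (15.1%), 2 held ACAATG (13.2%) and 0 held TATAAA (14.2%) or TGANTCA (7.33%). The base composition of the windows also differed. Plxnb3 had 2 CpG dinucleotides and an observed-to-expected CpG ratio of 0.123, where Sema4c had 15 and 0.549 and Sema5b had 20 and 0.601. The median ratio was 0.616 over the 22 members and 0.392 over all windows. A ratio below that of Plxnb3 was also found for Sema3c (0.101) and Sema6c (0.0718), neither of them past 1.5-fold. For comparison, the windows of the B-type relatives whose levels hardly differed held 45 (Plxnb1) and 36 (Plxnb2) CpG dinucleotides, with 7 and 4 GC boxes. Both also held the SOX motif ACAAAG, with 2 matches (Plxnb1) and 1 match (Plxnb2), so this motif was not particular to Plxnb3. These matches describe letters in a window and are not evidence of binding.

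Genes known to work with the family were taken from a list of 60 co-receptors, other ligands, proteases and cytoplasmic effectors, of which 59 were in the table and 52 passed the floor. Of these, 4 were at least 1.5-fold higher and 4 lower, 7.69% in each direction beside 3.74% and 4.84% of all genes tested, and the median difference was -0.05, beside -0.05 over all genes tested. The higher ones were effectors. Chn2, a GTPase-activating protein for Rac, measured 30.9 and 99.2 TPM, a ratio of 3.21 (interval 2.95 to 3.49). Rras2, a GTPase of the R-Ras group on which plexins act, measured 14.9 and 30.5 TPM (ratio 2.04, interval 1.77 to 2.36). Dpysl4, of the collapsin response mediator family, measured 82.2 and 151.4 TPM (ratio 1.84, interval 1.74 to 1.95), and Gipc1, an adaptor for the neuropilin tail, measured 156.2 and 238.5 TPM (ratio 1.53, interval 1.45 to 1.61).

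The lower ones had different roles. Flt1, a receptor for vascular endothelial growth factor, measured 4.51 and 2.25 TPM (ratio 0.499, interval 0.40 to 0.620). Pak2, a kinase downstream of Rac, measured 122.9 and 72.4 TPM (ratio 0.589). Adam10, a protease that sheds surface proteins, had a ratio of 0.630, and Rap1b, a GTPase of the type on which plexins act, a ratio of 0.654. Besides Chn2, the partner genes preset to be named whatever their value did not pass 1.5-fold on the log2(TPM + 1) scale. Dpysl2, the first described mediator of the Sema3a response, measured 417.6 and 449.3 TPM (ratio 1.08), and Mical1, an oxidase that takes actin filaments apart, had a ratio of 1.13 (interval 0.978 to 1.31). Fyn, the kinase of A-type plexins and of myelination, measured 388.4 and 563.6 TPM (ratio 1.45, interval 1.41 to 1.49). Arhgef11 and Arhgef12, exchange factors bound by B-type plexins, had ratios of 0.850 and 0.809. Of the receptor kinases that pair with B-type plexins, Met had a ratio of 0.761 and Erbb2 a ratio of 0.944.

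**Figure D4:**
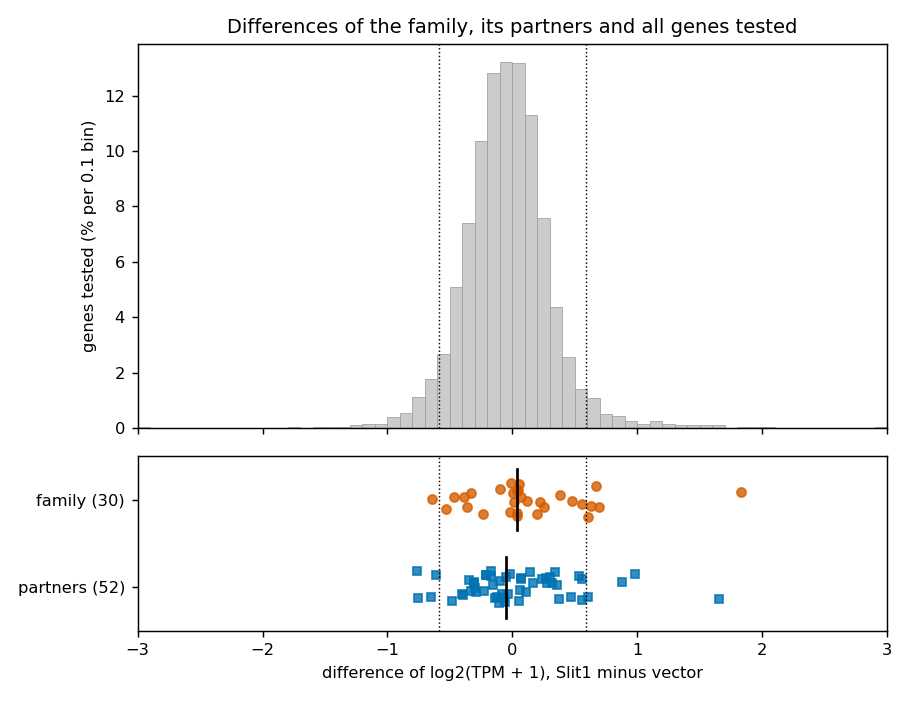
Top, share of the 13175 genes tested in each bin of the log2(TPM + 1) difference, Slit1 minus vector (genes beyond the axis are counted in the end bins); bottom, the 30 family members and 52 partner genes, with their medians as black bars and random vertical offsets. Dotted lines mark 1.5-fold, beyond which lie 5 members and 4 partners on the higher side and 1 member and 4 partners on the lower side.

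The balance of calls depended on the scaling. For the members it was 5 higher and 0 lower in FPKM, where 28 passed the floor, and 6 higher and 0 lower in CPM, with edgeR TMM factors and with the trend on gene length removed. With the median gene set to 0 it was 6 higher and 1 lower. The gene added was Plxnd1, and the gene lost was Sema3a. Over all genes tested the shares higher and lower were 3.32% and 2.80% in FPKM, 3.92% and 3.57% in CPM, 4.06% and 3.46% with TMM factors, 4.43% and 3.72% with the median gene set to 0, and 4.16% and 3.60% with the length trend removed. Partner genes split into 4 higher and 2 lower in FPKM, 6 and 3 in CPM, 7 and 3 with TMM factors, 6 and 3 with the median gene set to 0, and 7 and 2 with the length trend removed. Plxnb3, Sema4c, Sema4d, Sema5a and Sema5b were past 1.5-fold under each of these 5 scalings.

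**Figure D5:**
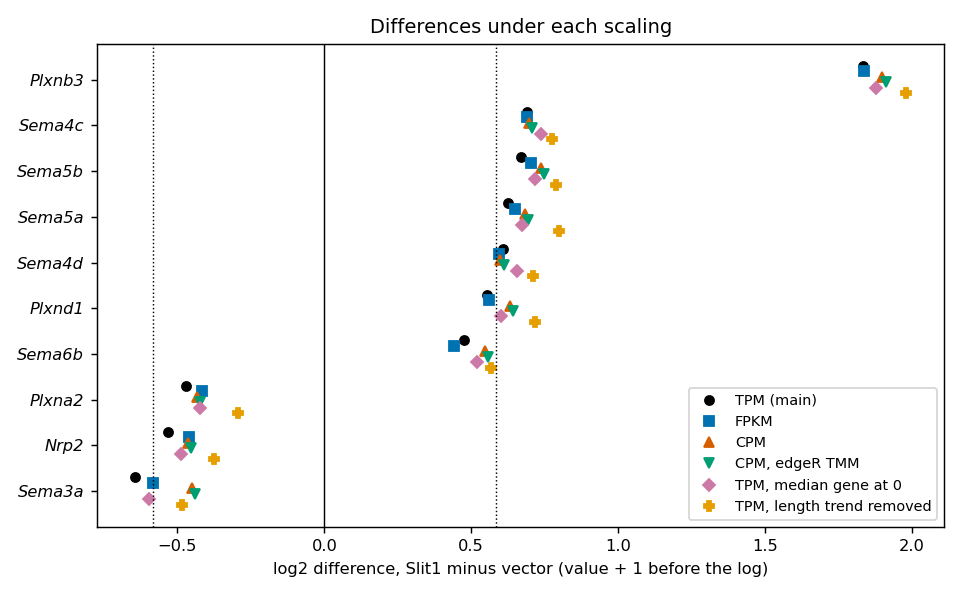
Log2 difference, Slit1 minus vector, of 10 genes under 6 scalings, 1 symbol per scaling, with dotted lines at 1.5-fold. Plxnb3 lies between 1.83 and 1.98 throughout, Plxnd1 lies on both sides of the upper line and Sema3a on both sides of the lower one.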

How the data were processed

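Libraries of total RNA, purified with a Promega kit, were prepared for Illumina sequencing, per the labels. Per the file headers, the authors deposited FPKM, TPM and estimated counts for 17455 genes in 1 table. These estimated counts are not scaled, as deposited by the authors, and need not be whole. The submitters' processing notes name the build mRatBN7.2; aligner, counter, annotation and strand setting: not given in the sources used here. Columns of other samples numbered 0. TPM ratios were given with exact (Clopper-Pearson) 95% intervals for 2 Poisson counts, from rounded counts (scipy 1.17.1), which cover counting error only. A count of 0 allows up to 3 counts. Differences used log2(TPM + 1), which understates changes of low genes, a floor of 1 TPM on the mean and a limit of 1.5-fold. CPM, a lowess trend on gene length (span 0.3, statsmodels 0.14.6) and TMM factors (edgeR 4.0.16) served as alternatives. Gene length was taken as estimated count over FPKM. The calculation was tested on simulated data. All members were named; of the partner list, all genes past the limit and 8 preset genes; of the marker lists, the most abundant and a few preset genes, with others chosen after their values were seen. The members, lists, motifs and alternatives were chosen with earlier results of these data known.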

Additional observations from a re-analysis of the deposited data

How the results depend on the processing

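No paired analysis was possible because each group is 1 library and the groups share only 1 replicate number. For the same reason no library could be left out. The 5 members that were 1.5-fold higher on the main scale numbered 2 with a pseudocount of 5 (where 1.96% of all genes tested were higher and 2.10% lower), 2 when the counting interval had to lie wholly beyond 1.5-fold (Plxnb3 and Sema5b; 1.98% of all genes were higher and 1.91% lower by this rule), and 1 at a limit of 2-fold. The number lower, 1 on the main scale, was 0 with a pseudocount of 5, at 2-fold and by the interval rule. It was also 0 in FPKM, in CPM, with edgeR TMM factors and with the length trend removed. For Sema3a the change in CPM follows from its CPM ratio (0.730), which lay closer to 1 than its TPM ratio (0.633). The members' median of 0.04 became 0.19 with the length trend removed, since all 30 members are longer than the median gene and the trend at their lengths had a median of -0.14. Among the partner genes, the 4 higher became 7 with edgeR TMM factors, 7 with the length trend removed and 1 at 2-fold, and the 4 lower became 2 in FPKM, 2 with the length trend removed, 2 by the interval rule and 0 at 2-fold. Their median of -0.05 turned to 0.04 in CPM, 0.05 with TMM factors and 0.04 with the length trend removed. Under the 7 settings that recompute the difference itself, 186 of 208 differences of single members stayed within the half-width of the counting interval from the main value; of the 22 that did not, 14 were with the length trend removed. The direction of the 6 called members was kept in each. Depth limits Sema4f, Sema6c and Sema4a, which had under 100 counts in at least 1 library.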

Other observations

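The ratio of estimated count to FPKM gives the gene length by which the authors' values were divided in each library. For 4 of the 30 members this length, relative to the median gene, differed by more than 5% between the libraries, against 11.2% of all genes tested. In Sema3a it was greater in Slit1 by a ratio of 1.12 (2.46 and 2.76 times the median gene), so its TPM ratio of 0.633 lay below its CPM ratio of 0.730. In Sema4a, Plxnb1 and Sema4d it was smaller in Slit1, with length ratios of 0.933, 0.947 and 0.949. Whether these genes differed in transcript form was not tested. On the GRCr8 assembly 16 of the 30 members overlap another annotated gene, and 1 of them, Sema6a, overlaps a gene of the expression table (LOC120098258, with 20.03 and 9.05 counts against 5690 and 6255 for Sema6a).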
